A study of Mus musculus with 12 samples.

Results

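The genes described here are 10 genes by which enterocytes, the absorptive cells of the small intestine, take up dietary fat and send it out again as lipoprotein. They were listed by function, but with earlier results of these data known, as Fabp1, Fabp2, Cd36, Mogat2, Dgat1, Mttp, Apob, Apoa1, Apoa4 and Apoc3. All 10 were in the deposited table of 23284 genes, and all 10 reached an FPKM (fragments scaled to transcript length and to library size) of at least 1 in at least 3 libraries, the level needed to enter the tests, as did 12502 genes in all. The study asked what a milk rich in palmitic acid, a long-chain saturated fatty acid, does to offspring, and here to the RNA of their intestinal group 3 innate lymphoid cells (ILC3s). HR-1 hairless mice, 18 weeks old, had been nursed by mothers fed chow with added palmitic acid (PA milk) or fed the normal diet (ND). In the paper's design, PA milk pups were born to mothers on the normal diet and moved after birth to the mothers fed palmitic acid. All the offspring ate normal chow from weaning. ILC3s were sorted from the intraepithelial layer (IEL), which lies among the enterocytes, and from the lamina propria (LP) beneath it, giving 4 groups of 3 libraries: PA milk IEL, ND IEL, PA milk LP and ND LP. The sort kept lineage-negative cells positive for Thy1.2, CD25 and Nrp1 and also for CD4 in the methods, or for CD45 in place of CD4 in the description of the plots. Nothing in the labels says that replicates of a group are separate mice, or that IEL and LP libraries with the same number come from the same mouse, so p-values below measure only the spread between these libraries.

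Fat is absorbed in the proximal small intestine. Lipase products enter the enterocyte, where fatty acid binding proteins carry them to the endoplasmic reticulum and a pair of acyltransferase steps rebuilds triglyceride. The microsomal transfer protein then loads this triglyceride onto apolipoprotein B to form a chylomicron, which takes up further apolipoproteins on its surface and leaves through the lymph. Lymphoid cells are not known to make chylomicrons, and apart from Dgat1, which many tissues express, and Cd36, which endothelium, macrophages and adipocytes also express, these genes serve as textbook markers of enterocytes or hepatocytes.

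Depth overlapped between the groups. The libraries held 8.73 to 14.6 M reads (M, 1e6), as worked out from the smallest step between values, but PA milk IEL replicate 2 and PA milk LP replicate 2 had far fewer genes at an FPKM of 1 or more (4390 and 5637) than the other 10 libraries (7863 to 11378). These 2 libraries also stood apart in several results below, so fold changes without both are given for the layer and for each diet comparison within a layer. The genes that define the sorted cells were uneven. Id2, needed by all innate lymphoid cells, was listed at 95.2 to 749.6 FPKM in every library, whereas Thy1, the gene of the sort marker Thy1.2, was at 0 in 5 of 12 libraries. Il7r, the interleukin 7 receptor gene, was under 1 FPKM in 3 of 12. Amplified cDNA was sequenced without molecular identifiers, so reads are not independent molecules, and the floor of 3 reads used below covers counting error only.

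The genes lie on 7 chromosomes of GRCm38 (mm10), and 3 of them are neighbours. In the GENCODE annotation, Apoa1 (chr9:46228580-46230466), Apoc3 (chr9:46232933-46235636) and Apoa4 (chr9:46240696-46243459) occupy 14880 bases of chromosome 9. Fabp1 is at chr6:71199827-71205023, Fabp2 at chr3:122895072-122899506, Cd36 at chr5:17781690-17888801, Mogat2 at chr7:99219084-99238619, Dgat1 at chr15:76502015-76511953, Mttp at chr3:138089854-138144968 and Apob at chr12:7977648-8016835. Exons of other annotated genes cover 1266 of the 1815 exonic bases of Apoa4, 589 of 6206 of Mttp and 55 of 1835 of Mogat2. A strand setting for the counting is not given in the sources used here, so reads of such genes cannot be told apart from those of Apoa4, Mttp and Mogat2.

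Promoter sequence is shown for 3 genes that were higher in IEL and for Cd36, the gene that went the other way, so that a reader can see what was searched. RefSeq held the bases before the start of 7 of the 10 genes on GRCm38.p6, and 250 bases were searched on both strands for 5 motifs. The first, CAAAGTCCA, is a strong site of HNF4, a nuclear receptor of enterocytes and hepatocytes. The second, TATAAA, is the TATA box that sets the start of many tissue-specific genes. The third, GATAAG, is bound by GATA factors, which pattern the proximal intestine. The next, GTTAAT, is part of the palindrome bound by HNF1, another factor of liver and intestine. The last, AGGTCA, is the core to which many nuclear receptors bind. Capitals mark matches, and bases that GENCODE places in an exon are left out.
Fabp1, chr6:71199629-71199826, plus strand: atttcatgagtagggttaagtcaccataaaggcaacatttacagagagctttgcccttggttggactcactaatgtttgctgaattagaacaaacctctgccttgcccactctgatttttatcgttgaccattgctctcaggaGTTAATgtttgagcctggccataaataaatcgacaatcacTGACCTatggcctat
Fabp2, chr3:122894822-122895071, plus strand: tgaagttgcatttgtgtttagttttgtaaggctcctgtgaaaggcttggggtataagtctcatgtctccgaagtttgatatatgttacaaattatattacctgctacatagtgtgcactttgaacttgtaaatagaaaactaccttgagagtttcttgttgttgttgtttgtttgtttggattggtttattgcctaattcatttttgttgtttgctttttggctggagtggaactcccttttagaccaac
Apoa1, chr9:46228380-46228579, plus strand: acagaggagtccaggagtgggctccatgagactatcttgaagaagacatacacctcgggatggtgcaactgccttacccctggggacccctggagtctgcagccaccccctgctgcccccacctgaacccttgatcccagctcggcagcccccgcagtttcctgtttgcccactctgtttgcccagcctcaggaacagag
Cd36, chr5:17835897-17836146, minus strand: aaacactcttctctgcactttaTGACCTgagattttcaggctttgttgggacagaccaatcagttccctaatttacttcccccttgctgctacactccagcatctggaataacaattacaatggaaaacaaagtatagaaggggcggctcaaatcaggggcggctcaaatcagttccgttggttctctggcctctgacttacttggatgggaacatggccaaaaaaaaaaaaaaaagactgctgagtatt
Fabp1 held GTTAAT once and AGGTCA 2 times (as TGACCT), with the second AGGTCA and a TATAAA in the bases left out. Cd36 held AGGTCA once, 228 bases before the start that RefSeq gives. That start lies inside the gene as GENCODE places it, so the printed bases are within the GENCODE gene and outside its exons. The bases searched for Mttp also lie inside its GENCODE gene. Fabp2 and Apoa1 held none of the 5, nor did Apoa4 and Mttp, while Apob held TATAAA and GATAAG. Among 32851 promoters of the same length, 0.384% held CAAAGTCCA, 12.4% TATAAA, 6.55% GATAAG, 6.43% GTTAAT and 14% AGGTCA. The TATA motif was thus held by both Fabp1 and Apob, the others by no more than 1 of the searched genes with a higher level in IEL, and Apoc3, Dgat1 and Mogat2 were not searched.

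The layer made the clearest difference. Of the 10 genes, 9 had a higher level in IEL than in LP, averaged over the diets, as had 46.6% of all genes, and 5 of them passed the test (limma on log2(FPKM + 1), adjusted p under 0.05 by Benjamini-Hochberg over all genes tested): Apoa1, Apoa4, Apoc3, Fabp2 and Mogat2. All 5 were higher in IEL, against 0.464% of all genes called as higher in IEL and 0.88% called in either direction. Unadjusted p was under 0.05 for 9 of the 10, against 13.4% of all genes. Cd36 was the exception, with a higher level in LP. Over the 10 genes the log2 fold change had a median of 5.0, and over all genes tested of -0.08. In bulk samples, fewer cells of a type and less RNA per cell cannot be told apart, so a difference here may be of either kind.

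**Figure D1:**
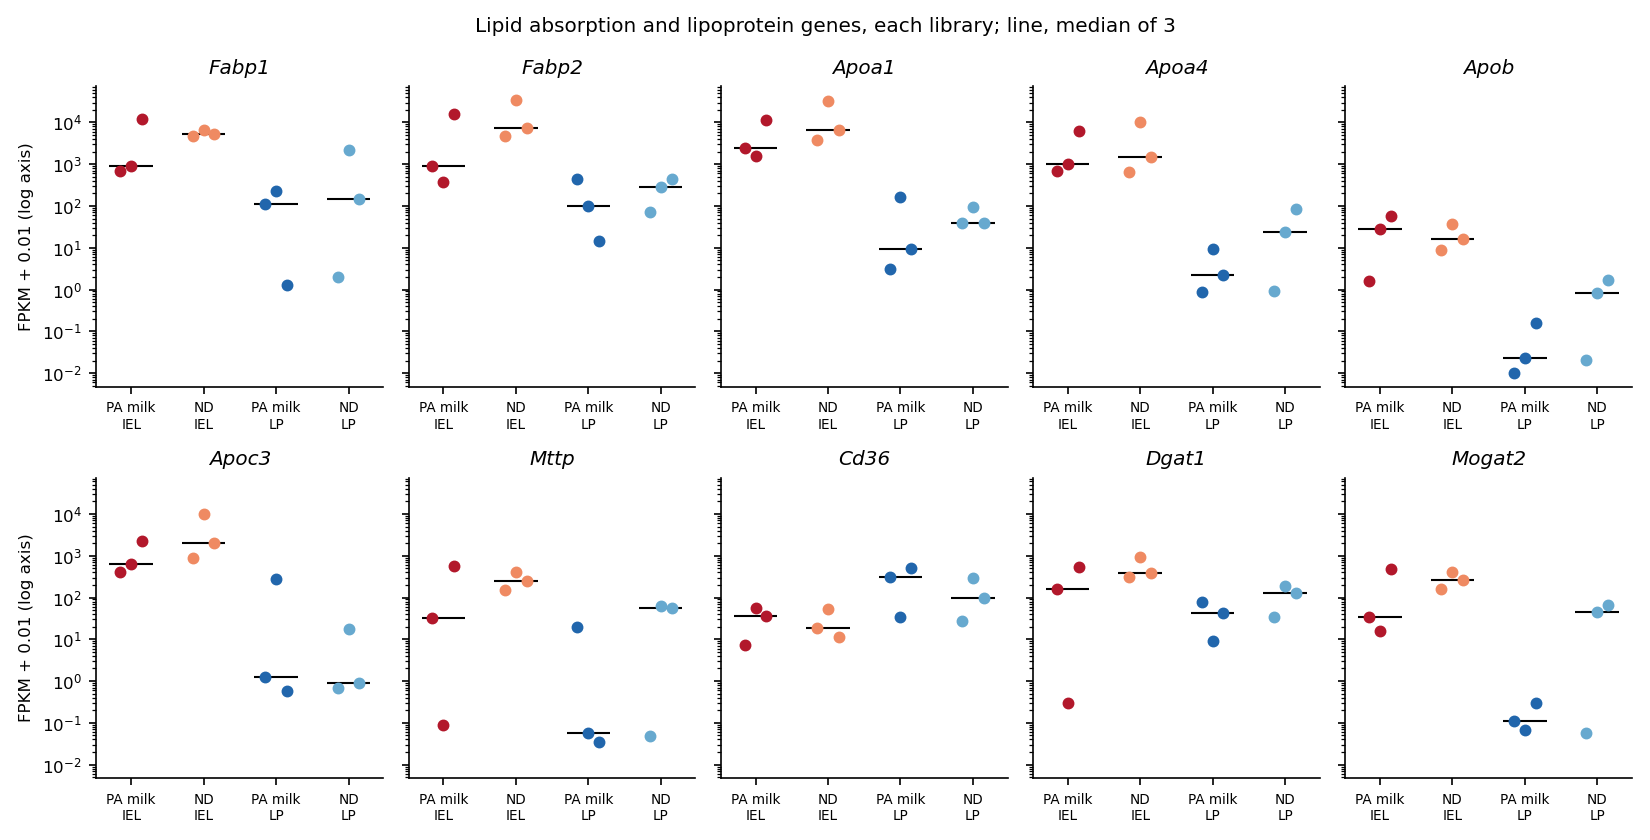
FPKM plus 0.01 (log axis) of each of the 10 genes in the 12 libraries, by group, with a line at the median of the 3 libraries. Apoa1, Apoa4 and Apoc3 have all 6 IEL libraries above all 6 LP libraries, and Cd36 has its highest values in LP.

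Fabp1 and Fabp2 encode the liver and intestinal fatty acid binding proteins, which are abundant in the enterocyte cytosol. Fabp2 was listed at 902, 385 and 16303 FPKM in PA milk IEL, at 4726, 35069 and 7504 in ND IEL, at 443, 98.7 and 14.9 in PA milk LP and at 70.0, 283 and 432 in ND LP. Only PA milk IEL replicate 2 lay within the range of the LP libraries. The mean FPKM of the IEL libraries was 48.3 times that of LP, and the log2 fold change was 5.02 (SE 0.89, adjusted p = 0.015). The call held without 11 of the 12 libraries in turn but not without ND IEL replicate 2 (log2 fold change 4.59). Fabp1 was listed at 670.3, 898 and 12094 FPKM in PA milk IEL, at 4641, 6532 and 5268 in ND IEL, at 109.7, 231 and 1.29 in PA milk LP and at 2.03, 2139 and 149 in ND LP. ND LP replicate 2 exceeded 2 of the IEL libraries, and the LP libraries ran from 1.29 to 2139 FPKM. Its log2 fold change between layers was 5.71 (SE 1.33, adjusted p = 0.0547). Left without ND LP replicate 2 it passed the threshold at 6.82, and without PA milk LP replicate 2 at 6.35, with adjusted p from 0.019 to 0.155 over the 12 libraries left out in turn.

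Mogat2 and Dgat1 encode the acyltransferases of the monoacylglycerol route, Mogat2 joining a fatty acid to monoacylglycerol and Dgat1 completing triglyceride. Mogat2 was listed at 33.7, 16.2 and 486 FPKM in PA milk IEL, at 158, 415 and 261 in ND IEL, at 0.0995, 0.0583 and 0.292 in PA milk LP and at 0.0461, 46.0 and 65.9 in ND LP. In LP the gene was thus seen only in ND replicates 2 and 3 at more than 1 FPKM, and 3 LP libraries were at or under the floor of 3 reads. The log2 fold change between layers was 4.99 (SE 1.06, adjusted p = 0.0361). This call was fragile: it held without only 3 of the 12 libraries in turn, with adjusted p from 0.021 to 0.123. Dgat1 was listed at 159, 0.282 and 541 FPKM in PA milk IEL, at 317, 927 and 392 in ND IEL, at 76.4, 9.08 and 41.8 in PA milk LP and at 34.4, 190.3 and 129.6 in ND LP. PA milk IEL replicate 2 was the lowest of all 12 libraries and the other 5 IEL libraries lay at 159 or more. With that library the log2 fold change was 1.46 (SE 1.12, adjusted p = 0.658), and without it 2.77, past the threshold, with adjusted p from 0.0423 to 0.868 over the libraries left out in turn.

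Apob encodes the structural protein that each chylomicron is built around, and Mttp the transfer protein that lipidates it. Apob was listed at 1.58, 28.5 and 56.9 FPKM in PA milk IEL, at 8.88, 36.2 and 15.9 in ND IEL, at 0, 0.0133 and 0.147 in PA milk LP and at 0.0105, 0.812 and 1.69 in ND LP. Every IEL library but PA milk IEL replicate 1 lay above all LP libraries, and 3 LP libraries were at or under the floor. The log2 fold change of 3.70 (SE 0.88, adjusted p = 0.0552) did not pass, and on the scale of FPKM plus 1 it understates a gene this low. It passed without PA milk IEL replicate 1 (4.37) and without PA milk LP replicate 2 (3.69), with adjusted p from 0.022 to 0.153 over the libraries left out in turn. Mttp was listed at 31.8, 0.0775 and 563 FPKM in PA milk IEL, at 154, 411 and 242 in ND IEL, at 19.8, 0.0486 and 0.0243 in PA milk LP and at 0.0384, 61.5 and 57.4 in ND LP. The layers overlapped, PA milk IEL replicate 2 holding next to none of Mttp, and 3 LP libraries were at or under the floor for it. Its log2 fold change was 3.63 (SE 1.41, adjusted p = 0.268).

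Apoa1, Apoa4 and Apoc3 encode apolipoproteins of the chylomicron surface. Apoa1 is the main protein of high-density lipoprotein, Apoa4 is made mostly by the small intestine, and Apoc3 restrains lipoprotein lipase. Apoa1 was listed at 2462, 1575 and 11729 FPKM in PA milk IEL, at 3754, 31904 and 6632 in ND IEL, at 3.11, 160.4 and 9.41 in PA milk LP and at 39.3, 93.9 and 39.8 in ND LP. Apoa4 was listed at 702, 994 and 6189.9 FPKM in PA milk IEL, at 644, 10155 and 1512 in ND IEL, at 0.854, 9.57 and 2.19 in PA milk LP and at 0.939, 23.5 and 82.7 in ND LP. Apoc3 was listed at 402, 620.1 and 2192 FPKM in PA milk IEL, at 891, 9735 and 2010.2 in ND IEL, at 1.23, 273 and 0.579 in PA milk LP and at 0.685, 17.5 and 0.914 in ND LP. In each of these 3 genes every IEL library lay above every LP library, which 0.632% of all genes did, while 0.608% lay the other way and none of the 10 genes did. PA milk LP replicate 2 was the highest LP library for Apoa1 and Apoc3 but not for Apoa4. For Apoc3, 2 LP libraries were at or under the floor of 3 reads.

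**Figure D2:**
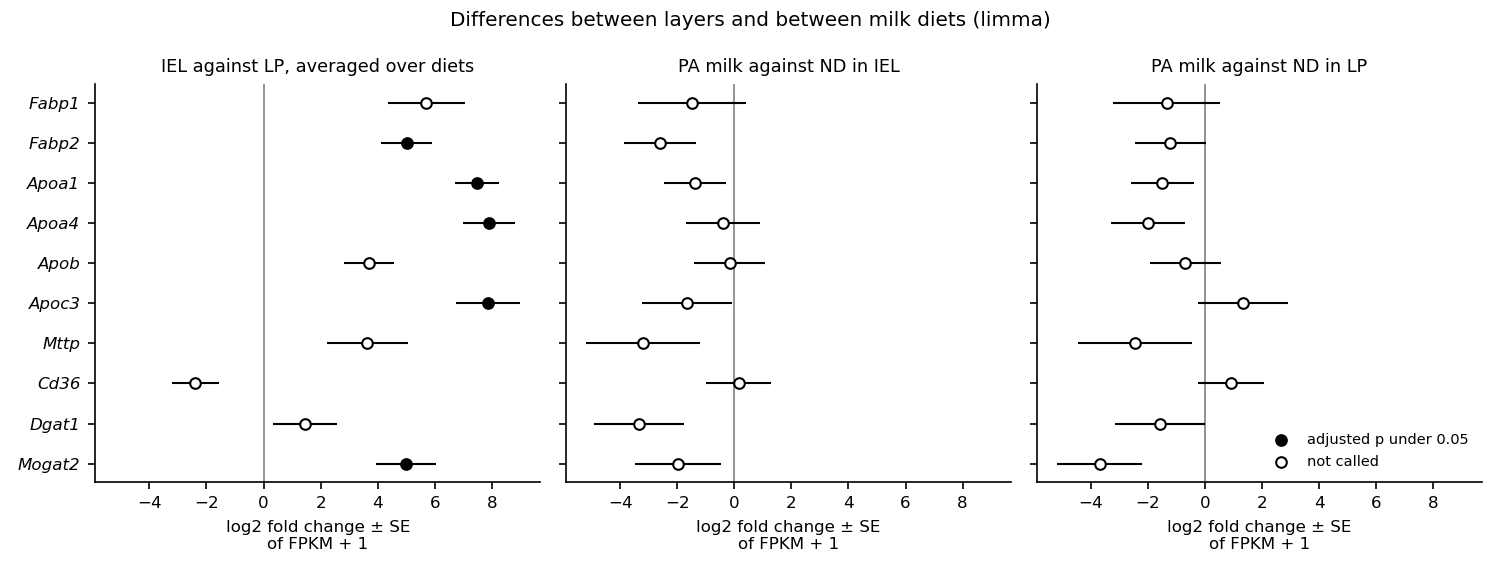
Log2 fold change of FPKM + 1 (points, bars are the SE from limma) of the 10 genes between the layers and between PA milk and ND in each layer, with filled points for adjusted p under 0.05. The 5 filled points are all in the layer comparison, and no gene is called between the diets.

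Their layer difference was the most secure of the 10. Apoa1 had the smallest p-value of all 12502 genes, with a log2 fold change of 7.49 (SE 0.78, adjusted p = 0.000387) and a mean FPKM 167.8 times higher in IEL. Apoa4 was at rank 4 by p, at 7.88 (SE 0.91, adjusted p = 0.000686), and Apoc3 at rank 11, at 7.87 (SE 1.12, adjusted p = 0.00332). All 3 calls held whichever library was left out, with a highest adjusted p of 0.00252 for Apoa1, 0.00444 for Apoa4 and 0.0221 for Apoc3. Within ND alone the 3 log2 fold changes were 7.43, 7.08 and 9.38, and within PA milk alone 7.55, 8.68 and 6.37. Against 110 genes called in all 12 libraries, 92 passed in the 6 ND libraries alone, among them Apoa1, Apoc3 and Fabp2. In the 6 PA milk libraries alone, which include both libraries with few genes, 1 gene passed and none of the 10. Without the 2 libraries with few genes, a choice made after seeing the data, 826 genes passed and 9 of the 10 did, all but Mttp, with the directions given above. The log2 fold changes were then 8.55 for Apoa1, 8.41 for Apoa4, 9.17 for Apoc3, 5.61 for Fabp2, 6.63 for Fabp1, 5.45 for Mogat2, 2.35 for Dgat1, 3.47 for Apob, 4.44 for Mttp and -3.25 for Cd36. FPKM values depend on how much of each library other genes take up, and after scaling to 30 leukocyte genes 9 of the 10 genes kept a higher level in IEL, the median of the log2 fold changes being 4.98.

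In level, fatty acid binding proteins and Apoa1 stood at the top. In IEL the medians over 6 libraries, on the per-length FPKM scale, were 6115 for Fabp2, 5193 for Apoa1 and 4955 for Fabp1, ranks 3, 4 and 5 among all genes of the table. Next came Apoc3 at 1451 and Apoa4 at 1253, then Dgat1 at 354, Mogat2 at 209.6, Mttp at 198, Cd36 at 27.0 and Apob at 22.2. The ranges of neighbours in this order overlapped between libraries. Compared within each library, Apoa4 lay above Dgat1 in all 6, whereas every other step of the order turned in some library. Apob is a very long transcript, and its low FPKM is already per length. In LP the order changed, with Cd36 at 196, Fabp2 at 191 and Fabp1 at 129 ahead of Dgat1 at 59.1, Apoa1 at 39.6, Mttp at 9.91, Apoa4 at 5.88, Apoc3 at 1.07, Mogat2 at 0.196 and Apob at 0.08, again with overlapping neighbours.

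**Figure D3:**
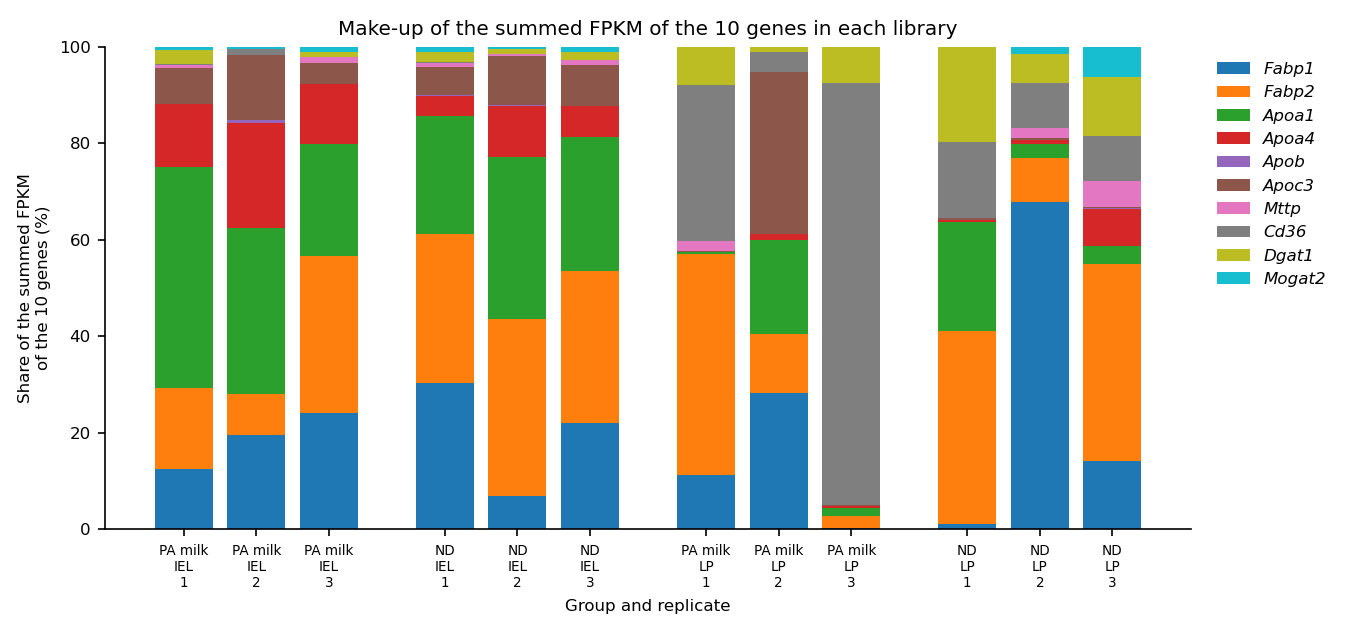
Share (%) of each gene in the summed FPKM of the 10 genes, 1 bar per library. Fabp1, Fabp2, Apoa1, Apoa4 and Apoc3 fill nearly all of each IEL bar, whereas Cd36 takes 4.15% to 87.6% of the LP bars.

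The make-up of this sum varied between libraries in both layers. Summed, the 10 genes took 2.13% to 10.7% of all FPKM in ND IEL, 0.589% to 5.90% in PA milk IEL, 0.0222% to 0.442% in ND LP and 0.075% to 0.133% in PA milk LP. In the 3 ND IEL libraries and PA milk IEL replicate 3 the ratio of Apoa1 to Fabp2 was between 0.719 and 0.91 and that of Mogat2 to Mttp between 0.863 and 1.08. PA milk IEL replicates 1 and 2 had more Apoa1 than Fabp2, with ratios of 2.73 and 4.09, and their ratios of Mogat2 to Mttp were 1.06 and 208.8. In LP the ratio of Apoa1 to Fabp2 ran from 0.007 to 1.63 and that of Mogat2 to Mttp from 0.005 to 12. The extreme ratios of Mogat2 to Mttp rest on few reads. Mttp had about 4 reads in PA milk IEL replicate 2 and 1 in PA milk LP replicate 3, where Mogat2 had 5. Mogat2 had 2 in PA milk LP replicate 1. The leading gene in LP was Fabp2 in 3 libraries and Fabp1, Cd36 or Apoc3 in the others. PA milk LP replicate 2 was led by Apoc3, with 33.5% of the sum, and PA milk LP replicate 3 by Cd36, with 87.6%.

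Cd36 encodes a fatty acid translocase of the plasma membrane that also serves as a scavenger receptor. It was listed at 7.47, 55.2 and 35.5 FPKM in PA milk IEL, at 18.5, 53.0 and 11.04 in ND IEL, at 313, 33.9 and 497 in PA milk LP and at 27.5, 293 and 98.6 in ND LP. The LP libraries above 90 FPKM were PA milk replicates 1 and 3 and ND replicates 2 and 3, and the remaining pair lay within the IEL range. The mean FPKM was 6.98 times higher in LP, and the log2 fold change of IEL against LP was -2.39 (SE 0.81, adjusted p = 0.187). Without PA milk LP replicate 2 it was -2.97 and passed the threshold, with adjusted p from 0.0357 to 0.423 over the libraries left out in turn. Over the 12 libraries, Pearson's r of log2(FPKM + 1) between Cd36 and each of the other 9 genes was from -0.69 to -0.16, whereas among those 9 genes it was 0.285 to 0.953 with a median of 0.82. These correlations are descriptions over 12 libraries that share the difference between layers. Within the 6 IEL libraries the sign turned for 7 of the 9 genes, r with Cd36 running from -0.305 for Dgat1 to 0.83 for Apob, and within the 6 LP libraries it ran from -0.599 for Apoa1 to 0.571 for Dgat1, above 0 for 5 of the 9.

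Cd36 went with endothelial genes over the 12 libraries, which share the difference between layers. All 6 endothelial genes listed had a lower level in IEL. Over the same 12 libraries the r of Cd36 was 0.905 with Kdr and 0.86 with Cdh5, both genes of vascular endothelium. It was 0.82 with Emcn and with Esam, 0.811 with Tek and 0.649 with Pecam1. Most of these genes were near 0 in many libraries. Kdr was under 1 FPKM in 8 of 12, Emcn and Tek in 7, Cdh5 and Esam in 6 and Pecam1 in 1. Between Cd36 and Fabp4, which capillary endothelium and adipocytes express, r was 0.863, and with Cd68, a macrophage gene, -0.111. Cd68 is 1 of 9 macrophage genes listed and r was not worked out for most of them, so this value does not speak for the set. The summed FPKM of the 6 endothelial genes was 187 to 704 in ND LP, 821 and 1152 in PA milk LP replicates 1 and 3 and 0.158 in PA milk LP replicate 2, and 2.35 to 25.99 in the IEL libraries. Within IEL the order differed: ND IEL replicate 2 had the lowest sum, 2.35, with Cd36 at 53.0 FPKM. In PA milk IEL replicate 1 the sum was 24.7 with Cd36 at 7.47, while PA milk IEL replicate 2 had the highest of both, 25.99 and 55.2. Of 5 adipocyte genes, Adipoq, Plin1 and Lep were at 0 in all 12 libraries and Fabp4 was above 0 in all. Cidec, a lipid droplet gene, was above 0 in 8 libraries, with 163 FPKM in PA milk IEL replicate 3, 70.6 in ND IEL replicate 2 and at most 5.41 in LP. The part of endothelial RNA in the level of Cd36 was not tested.

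**Figure D4:**
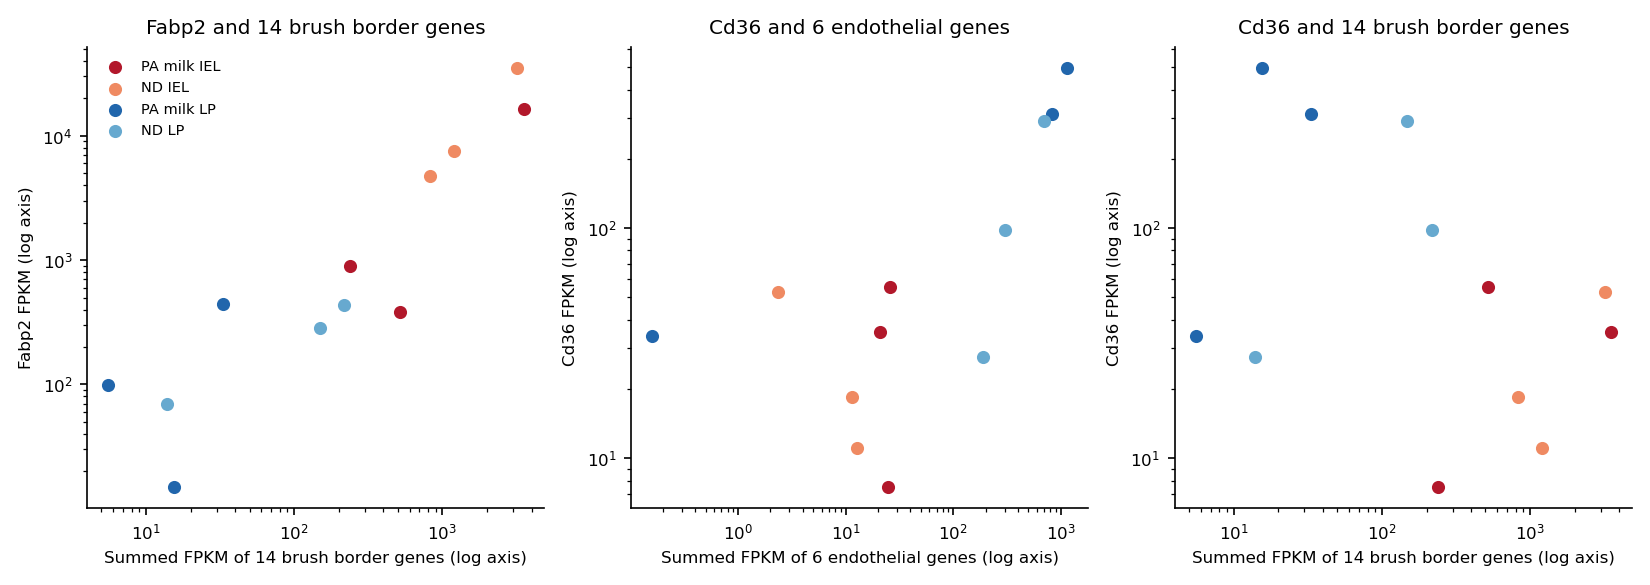
FPKM of Fabp2 and Cd36 against the summed FPKM of 14 enterocyte brush border genes or 6 endothelial genes, all on log axes, 1 point per library. Fabp2 and the brush border sum have an r of 0.908 on the log2(FPKM + 1) scale, and the 4 libraries with Cd36 above 90 FPKM have endothelial sums of 301 or more.

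Enterocyte genes also differed in level between the layers. The 14 brush border genes, digestive enzymes and sugar and peptide transporters of the enterocyte surface, summed to 824 to 3186 FPKM in ND IEL, 238 to 3530 in PA milk IEL, 13.9 to 217 in ND LP and 5.53 to 33.3 in PA milk LP. All 14 had a higher level in IEL and 5 of them passed the test, beside 46.6% and 0.464% of all genes. Over the 12 libraries, which share the layer, Pearson's r of log2(FPKM + 1) with this sum was 0.552 (Dgat1) to 0.954 (Mogat2) for the 9 genes other than Cd36. Within IEL it was 0.538 to 0.922 for these 9. Within LP it ran from -0.331 for Apoc3 and near 0 for Apoa1 to 0.933 for Dgat1. For Cd36 the r with this sum was -0.375 over the 12 libraries, 0.555 within IEL and 0.378 within LP. Of the 14, at least 1 FPKM was reached by 13 to 14 genes per library in ND IEL and 7 to 14 in PA milk IEL. In ND LP it was 3 to 12 and in PA milk LP 1 to 4. Alpi, intestinal alkaline phosphatase, was at 0 in none of the 12 libraries but under 1 FPKM in 3. Epcam, a surface protein of epithelium, was at 0.196 FPKM in PA milk IEL replicate 2, where Apoa1 was at 1575, and at 41.9 to 1133 in the other 11. Epcam does not speak for the 13 pan-epithelial genes in that library. There 5 of them were at 1 FPKM or more and 3 at 0, with a sum of 1053 FPKM. Of 13 pan-epithelial genes, 11 had a higher level in IEL and 3 passed, against the same shares of all genes. Of 13 sort marker and ILC3 genes, 8 had a higher level in IEL and none passed the test. Their sum leaned opposite ways in the diets, at 684.6 to 5380 FPKM in ND LP above the 320.4 to 638.2 of ND IEL, but at 209.8 to 475 in PA milk LP against 353 to 1869 in PA milk IEL. The part of enterocyte RNA in the levels of the 9 genes was not tested. Measured by Pearson's r over the 12 libraries with the mean standardised profile of the 10 genes, the closest other genes included Slc5a1 (the intestinal sodium glucose transporter, r = 0.972), 2010106E10Rik (0.962), Atp5d (0.955), Gsto1 (0.953), Galm (0.949), Osta (0.946), Anpep (0.946), Ckb (0.944) and 2210404O07Rik (0.942). Of the 10 genes themselves, Fabp2 (0.958) and Mogat2 (0.952) followed that profile most closely, Dgat1 followed it less (0.657) and Cd36 ran against it (-0.397). Each of the 10 is part of that profile, which raises its r, so these values do not compare with those of the other genes.

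The milk comparison asks whether these lipid genes differed long after weaning between mice nursed on PA milk and on normal milk. In IEL, 9 of the 10 genes had a lower level in PA milk (all 10 after scaling to the leukocyte genes), as had 60.5% of all genes, and none passed the limma test, which 0% of all genes did. The median was -1.57 over the 10 genes and -0.30 over all genes, and without PA milk IEL replicate 2 it was -0.83 and 0.001. Dgat1 had a log2 fold change of -3.34 (SE 1.59, adjusted p = 0.947) and Mttp of -3.20 (SE 2.0, adjusted p = 0.947). Both rest on PA milk IEL replicate 2, where the 2 genes were next to absent: without it they were -0.73 and -0.87. Fabp2 followed with -2.59 (SE 1.26), Mogat2 with -1.97 (SE 1.5), Apoc3 with -1.66 (SE 1.58), Fabp1 with -1.48 (SE 1.89) and Apoa1 with -1.37 (SE 1.10). Apoa4 (-0.40), Apob (-0.17) and Cd36 (0.15) lay near 0, well within their SEs of 1.15 to 1.29. Without PA milk IEL replicate 2 all 10 genes had a lower level, with Fabp2 at -1.49, Apoc3 at -1.46, Mogat2 at -0.99, Fabp1 at -0.93, Apoa1 at -0.79, Apob at -0.59, Cd36 at -0.41 and Apoa4 at -0.042. Unadjusted p was under 0.05 for none of the 10, against 3.58% of all genes. The groups overlapped for all 10, whereas 2.97% of all genes had every PA milk library above every ND library and 5.22% every one below.

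Replicate 3 of PA milk IEL accounted for much of that overlap. It held 12094 FPKM of Fabp1, 563 of Mttp and 486 of Mogat2, above all 3 ND libraries for each, while replicates 1 and 2 lay below all 3 ND libraries for Fabp1, Fabp2, Apoa1, Apoc3, Mttp, Dgat1 and Mogat2. The brush border sum moved with it, at 3530 FPKM in replicate 3 against 238 and 517 in replicates 1 and 2, and 824 to 3186 in ND IEL. The part of enterocyte RNA in this spread was not tested.

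In LP, 8 of the 10 genes had a lower level in PA milk, as had 62.2% of all genes, and again none passed the limma test, as 0% of all genes did. Scaling to the leukocyte genes moved the median of all genes from -0.36 to -0.02 in LP and from -0.30 to -0.62 in IEL, and that of the 10 genes from -1.42 to -0.99 in LP and from -1.57 to -2.18 in IEL. Without PA milk LP replicate 2 the LP medians were -1.53 for the 10 genes and -0.05 for all genes. Mogat2 had the largest difference, -3.70 (SE 1.5, unadjusted p = 0.0253, adjusted p = 0.979 by limma), and was the only one of the 10 with an unadjusted p under 0.05, against 4.7% of all genes. Its values overlapped between the diets because ND LP replicate 1, at 0.0461 FPKM, was the lowest of the 6. Mttp followed at -2.47 (SE 2.0), Apoa4 at -2.0 (SE 1.29), Dgat1 at -1.58 (SE 1.59), Apoa1 at -1.50 (SE 1.10), Fabp1 at -1.35 (SE 1.89), Fabp2 at -1.21 (SE 1.26) and Apob at -0.69 (SE 1.24). Apoc3 went the other way at 1.34 (SE 1.58), a value set by PA milk LP replicate 2 with 273 FPKM, and without that library it was -1.06. Cd36 was at 0.90 (SE 1.15), from 0.04 to 2.07 with each library left out. Without PA milk LP replicate 2 Mogat2 was at -3.64, Mttp at -1.76, Apoa4 at -2.70, Dgat1 at -0.74, Apoa1 at -3.04, Fabp1 at -2.64, Fabp2 at -1.29, Apob at -0.67 and Cd36 at 2.07. None of the 10 had groups without overlap, against 2.97% of all genes with PA milk above ND and 6.6% below. The brush border sum was also lower in PA milk LP (5.53 to 33.3 FPKM) than in 2 of the 3 ND LP libraries (149 and 217), the third being at 13.9. In LP 11 of the 14 brush border genes (median -1.33), all 13 pan-epithelial genes (median -2.15) and 11 of the 13 sort marker and ILC3 genes (median -1.64) had a lower level in PA milk, with an unadjusted p under 0.05 for 1, 6 and 3 of them and none called. The part of these genes in the LP values was not tested.

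Averaged over the layers, 9 of the 10 genes had a lower level in PA milk, as had 66.9% of all genes, with Cd36 at 0.53 (SE 0.81) as the exception. None passed the test, nor did any other gene (0%). Unadjusted p was under 0.05 for Mogat2 (-2.83, SE 1.06), Dgat1 (-2.46, SE 1.12) and Fabp2 (-1.90, SE 0.89), against 6.02% of all genes, and the adjusted p of these 3 was 0.757 to 0.805. The median log2 fold change was -1.43 over the 10 genes and -0.36 over all genes tested, so genes in general also had a lower level. When the libraries were scaled on leukocyte genes the median of the 10 was -1.51, and without the 2 libraries with few genes it was -1.34, with -0.01 for all genes. The difference of the diet effect between IEL and LP was not called for any of the 10 or for any gene (0%), 292 genes and none of the 10 having an unadjusted p under 0.05 in limma, with values from -3.0 for Apoc3 (SE 2.24) to 1.73 for Mogat2 (SE 2.12). With 3 libraries in a group and SEs of 1.1 to 2.0 on the log2 scale within a layer, differences of several times in level could not be told from the spread.

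Further genes of lipid handling were read from a list of 45 by role, of which 43 entered the tests (Apoa5 and Bco1 did not). Between the layers, 35 of the 43 had a higher level in IEL, against 46.6% of all genes, and 3 passed the test, all higher in IEL, against the 0.464% given above. The 3 were Rbp2, the retinol binding protein of enterocytes, Apoc2, the activator of lipoprotein lipase, and Abcg5, a subunit of the sterol efflux pump. Rbp2 was listed at 603, 303 and 6810.1 FPKM in PA milk IEL, at 1244, 6341 and 1919 in ND IEL, at 0.671, 1.18 and 10.05 in PA milk LP and at 51.7, 345 and 67.02 in ND LP. Its log2 fold change between layers was 6.41 (SE 0.77, adjusted p = 0.000873), that of Apoc2 was 7.01 (SE 0.86, adjusted p = 0.000981) and that of Abcg5 was 4.85 (SE 0.96, adjusted p = 0.0276). Acsl5, which activates fatty acids as acyl-CoA, followed at 2.29 (SE 0.53, adjusted p = 0.0537) and did not pass.

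**Figure D5:**
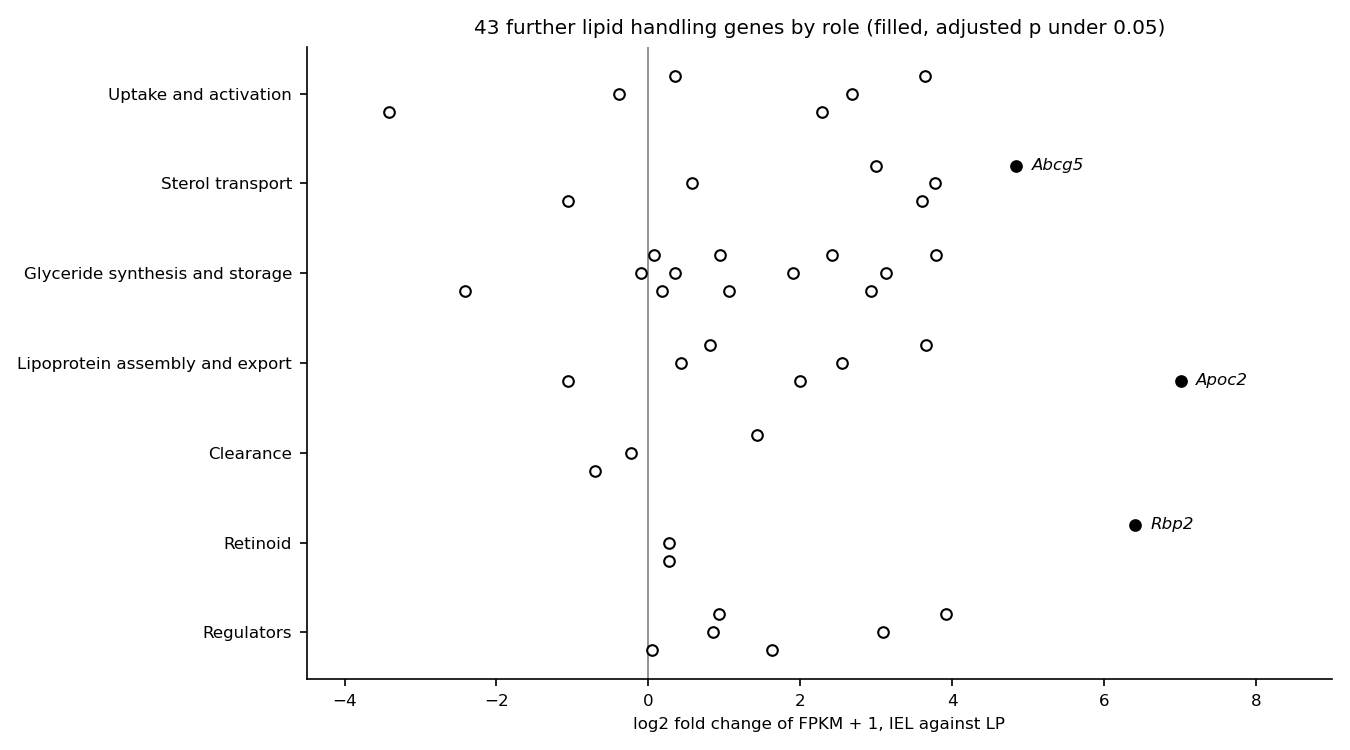
Log2 fold change of FPKM + 1 between IEL and LP of 43 further lipid handling genes, grouped by role, 1 point per gene, filled where adjusted p was under 0.05. Of the 43 points 35 lie above 0, and Rbp2, Apoc2 and Abcg5 are the filled ones.

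By role, 6 of 6 regulators, 5 of 6 sterol transport genes, 6 of 7 assembly and export genes, 3 of 3 retinoid genes, 10 of 12 glyceride genes, 4 of 6 uptake genes and 1 of 3 clearance genes had a higher level in IEL. The median over the 43 was 1.06, beside -0.08 for all genes. Unadjusted p was under 0.05 for 18 of the 43 with a higher level in IEL and for 2 with a higher level in LP, against 13.4% of all genes in either direction. The 2 were Scarb1, the scavenger receptor for lipoproteins (-3.41), and Mgll, monoacylglycerol lipase (-2.41), and they are named here after their values were seen.

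Between the diets the 43 genes gave no call in either layer. In IEL, 34 of 43 had a lower level in PA milk, beside 60.5% of all genes, and Isx, an intestinal homeobox gene that restrains retinoid uptake, had the only unadjusted p under 0.05. Isx was at 0, 0 and 67.2 FPKM in PA milk IEL and at 119.6, 47.2 and 56.9 in ND IEL, a log2 fold change of -4.09 (SE 1.42, adjusted p = 0.947). In LP, 29 of 43 had a lower level, close to the 62.2% of all genes, and Rbp2 differed most, at -4.97 (SE 1.09, unadjusted p = 0.000318, adjusted p = 0.413). The 3 PA milk LP libraries of Rbp2 lay below all 3 ND LP libraries, at 10.05 FPKM or less against 51.7 or more, as was so for 6.6% of all genes. Dgat2, the second enzyme able to complete triglyceride, was at -3.75 in LP (SE 1.31, adjusted p = 0.979). The difference between the layers in the diet effect on Rbp2 was 3.77 (SE 1.53, unadjusted p = 0.026, adjusted p = 0.9999 by limma). Averaged over the layers, the 4 genes with the smallest p were Rbp2 (-3.09), Isx (-2.98), Dgat2 (-2.66) and Lpin3 (-2.34), with adjusted p of 0.624 to 0.78.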

How the data were processed

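The data are 12 RNA-seq libraries of sorted small-intestinal ILC3s, 3 for each combination of layer (IEL or LP) and milk (PA milk or ND), grouped and numbered as the labels give them. The authors amplified cDNA with a SMART-Seq v4 kit and, per the labels' processing notes, used TopHat2 2.1.1, Bowtie2 2.2.8.0, SAMtools 0.1.18, Cufflinks 2.2.1 and Cuffdiff 2.2.1 with mm10. They deposited FPKM values, the unit used for every result here. A second deposited table holds a scaled signal, counts divided by a size factor and rounded, which was used only for depth. Its low values lie at multiples of a step per library (92.3% to 99.0% within 0.05 of a whole multiple), read as 1 read, which gave the floor of 3 reads. It does not hold raw counts, so no count test was run.

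Genes that reached 1 FPKM in 3 or more libraries were kept, and their log2(FPKM + 1) was fitted with limma 3.58.1 in R 4.3.3, with 4 group means, all 12 libraries and a mean-variance trend. Benjamini-Hochberg adjustment ran over all genes tested, with 0.05 as the threshold. The fit was run on simulated data with the same spread for every gene, smaller than that of the 10 genes here. That run checked the code and not the power of the test on these data. Python 3.11.15 with pandas 2.3.3, numpy 2.4.6 and matplotlib 3.10.9 made the tables and plots. The 10 genes, the list of 45 lipid handling genes and the marker lists were chosen with earlier results of these data known. All 10 genes are named. Of the 45, up to 4 are named per comparison, those with an adjusted p under 0.05 and then those with an unadjusted p under 0.05 in order of p. Values of 3 genes are not reported here, and these genes stay in the fits and the counts. Older symbols were matched through RefSeq synonyms. Alternatives were a pseudocount of 0.1, no filter, scaling on the upper quartile or on 30 leukocyte genes, a replicate block, 1 diet or 1 layer alone, each library left out, and, added after seeing the data, leaving out the 2 libraries with the fewest genes. Positions follow GENCODE release vM21 of GRCm38.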

Additional observations from a re-analysis of the deposited data

How the results depend on the processing

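The direction between layers of all 10 genes was kept under every alternative, whereas the calls moved. The 110 genes called between the layers became 30 with no filter, 58 with a pseudocount of 0.1, 1 in PA milk alone, 826 without the 2 libraries with the fewest genes and 37 to 521 with 1 library left out, the 521 without PA milk LP replicate 2. Deviations of same-numbered libraries from their group means correlated at -0.12 to 0.07. Such values cannot settle whether these libraries are paired, and no pairing is given by the labels. With the replicate block, 29 genes were called between layers, 3 between diets in LP, 2 averaged over the layers and 1 for the difference between layers. Scaling on leukocyte genes gave 1 called gene averaged over the layers. With 1 library left out, the counts between diets were 0 to 1 in IEL, 0 to 8 in LP (8 without PA milk LP replicate 3) and 0 to 1 averaged over the layers. All 5 called genes lost their calls in PA milk alone, and Apoa4 and Mogat2 lost theirs in ND alone. Fabp2 and Mogat2 lost theirs also with no filter and with the replicate block, and Mogat2 with a pseudocount of 0.1 and with leukocyte scaling. No call between the diets was made for any of the 10 genes.

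Several diet directions turned with 1 library left out, and the cause was not tested. In IEL the range was -1.36 to 0.72 for Apoa4, -1.08 to 1.17 for Apob and -0.41 to 0.96 for Cd36. In LP it was -3.87 to 0.87 for Fabp1, -2.37 to 0.031 for Fabp2 and -1.06 to 2.66 for Apoc3. Averaged over the layers it was -0.89 to 0.24 for Apob and -1.36 to 0.50 for Apoc3. For the difference between layers it was -2.35 to 2.38 for Fabp1, -0.98 to 1.67 for Apoa1, -0.38 to 1.86 for Apob, -2.92 to 1.60 for Mttp, -1.92 to 0.11 for Cd36 and -3.51 to 0.85 for Dgat1. Scaling on leukocyte genes turned Cd36 in IEL (-0.43) and Apoa1 for the difference between layers (-0.96). Without the 2 libraries with the fewest genes the values were -0.41 for Cd36 in IEL, -1.06 for Apoc3 in LP and, for the difference between layers, 1.71 for Fabp1, 0.88 for Mttp and 0.011 for Dgat1.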
